A study of Mus musculus with 24 samples.

Results

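The genes described here are the ligands, receptors, inhibitors and core nuclear factors of the Wnt pathway in kidneys of mice with a reversible blockage of the ureter. They were chosen by gene symbol among the protein-coding rows of the deposited table: Wnt, frizzled (Fzd), Sfrp and Dkk genes by name, and a fixed set of co-receptors, turnover regulators and intracellular proteins. A row was found for 37 of them, among 14785 rows in all. By role they were 8 ligands, 7 frizzled receptors, 5 co-receptors, 3 regulators of receptor turnover, 7 secreted inhibitors, 4 intracellular proteins and 3 T cell factor (TCF) genes. A further 22 genes that the symbols would name, among them Lef1, Wif1, Dkk1, Fzd3 and Rspo1 to Rspo4, are not analysed here.

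Wnt ligands are secreted glycoproteins that bind a frizzled receptor together with the co-receptor Lrp5 or Lrp6. Binding stops the destruction of β-catenin, which then enters the nucleus and activates genes together with TCF proteins, Axin2 and Nkd1 being common feedback targets. Other ligands signal through Ror1, Ror2 or Ryk without β-catenin. In the kidney the pathway is needed for nephron formation, is quiet in most adult tubules, and is known to be re-engaged in tubular injury and fibrosis.

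The animals were male C57/BL6 mice labelled as 8 week old, and 4 of the 10 animals in each group were sequenced, giving 24 polyA libraries of kidney RNA. Sham animals had surgery without obstruction, UUO2 and UUO7 animals were killed at 2 or 7 days of unilateral ureter obstruction, and R1W, R2W and R4W animals had 7 days of obstruction that was then reversed, with 1, 2 or 4 weeks to recover. Replicates are separate mice. No time after surgery was read from the labels for the Sham animals, and all groups carry the same age label. In R4W against Sham, a difference of treatment and a difference of age or time since surgery cannot be told apart. The series title calls the tissue cortical. In whole-tissue RNA, fewer cells of a type and less RNA per cell cannot be told apart. The treatment label of R4W replicate 2 says 2 weeks of reversal while its title says 4 weeks. The title decided its group here, and placing it in R2W moved no count of called members by more than 1.5 times.

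Levels are rescaled FPKM, that is, fragments per kilobase and per library size after each library was divided by its median ratio to the geometric mean over libraries. Fold changes are log2 differences of rescaled FPKM + 1 with the moderated SE, and a gene was called at a limma adjusted p under 0.05. Without the rescaling the median gene stood 0.41 higher on the log2 scale at UUO7 against Sham and 0.32 higher at R4W against Sham, and the calls of 9 and 16 of the 37 members differed between the scalings. Such a difference is given beside each call described in full.

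Other tissue markers moved strongly across the groups. Summed levels of 8 fibroblast and myofibroblast markers were 38.7 to 86.0 in Sham, 110 to 212 in UUO2, 468 to 603 in UUO7 and 240 to 358 in R4W. Proximal tubule markers summed to 4503 to 5846 in Sham and 766 to 996 in UUO7. All 8 fibroblast markers and all 8 macrophage markers were higher at UUO7 than in Sham, and all 8 proximal tubule markers were lower. At UUO2 all 8 endothelial markers were lower than in Sham, and 4 of them without the rescaling. No list had a marker at 0 in every library of the study, and the adipose marker Adipoq was listed at 0 in all UUO2 and all R1W libraries. Sham replicate 2, R1W replicate 2, R2W replicate 1 and R4W replicates 1 and 3 stood apart by Akr1b3, an aldose reductase abundant in the medulla, at 292 to 643 against at most 166 elsewhere. Of the 8 inner medulla markers Akr1b3, Slc14a2, Aqp4 and Cryab were each highest of their group in those libraries and the other 4 were not in all of them, and the summed level was 1469 in Sham replicate 2 against 432 to 504 in the other Sham animals but 1942 in R2W replicate 1, within 1550 to 2483 in R2W. UUO2 replicate 2 also stood apart within its group, with proximal tubule markers summing to 3037 against 1742 to 2069, thick limb and distal markers to 2180 against 965 to 1228 and collecting duct markers to 943 against 437 to 517. The UUO2 samples carry descriptions of another form than the rest, and the 20 multiplexed libraries in the design text equal the number outside UUO2, so a difference of UUO2 and a difference of library set cannot be told apart. The part of these differences in the results below was not tested.

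At 7 days of obstruction 19 of the 37 members were higher than in Sham and 8 were lower, which is 73.0% of members against 73.0% of all genes. Changed members were thus as frequent as changed genes in general. Higher calls made up 36.5% of all genes, and so did lower calls. The median member stood 0.23 above Sham on the log2 scale, against 0.01 for all genes. In the values as deposited 25 members were higher and 4 lower, beside 60.1% and 17.8% of all genes. A log2 change of at least 1 was reached by 7 members upward (Nkd1, Wnt4, Dkk3, Fzd2, Axin2, Tcf7 and Wnt7b), beside 13.4% of all genes, and by 1 downward (Wnt11), beside 10.8%. Together they were 8 of 37, beside 24.1% of all genes. The pseudocount of 1 understates changes of low genes. Wnt10a at 4.61 times and Sfrp5 at 3.1 times the Sham mean were thus left out, while Wnt7b at 1.66 times was counted. Every deposited row had a mean of at least 1 over all libraries. Nkd1, Fzd2, Axin2 and Tcf7 had deposited Sham means of 0.37 to 0.98, so they had a row only through higher values elsewhere. The groups did not overlap for 27 of the 37 members, beside 68.4% of all genes.

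**Figure D1:**
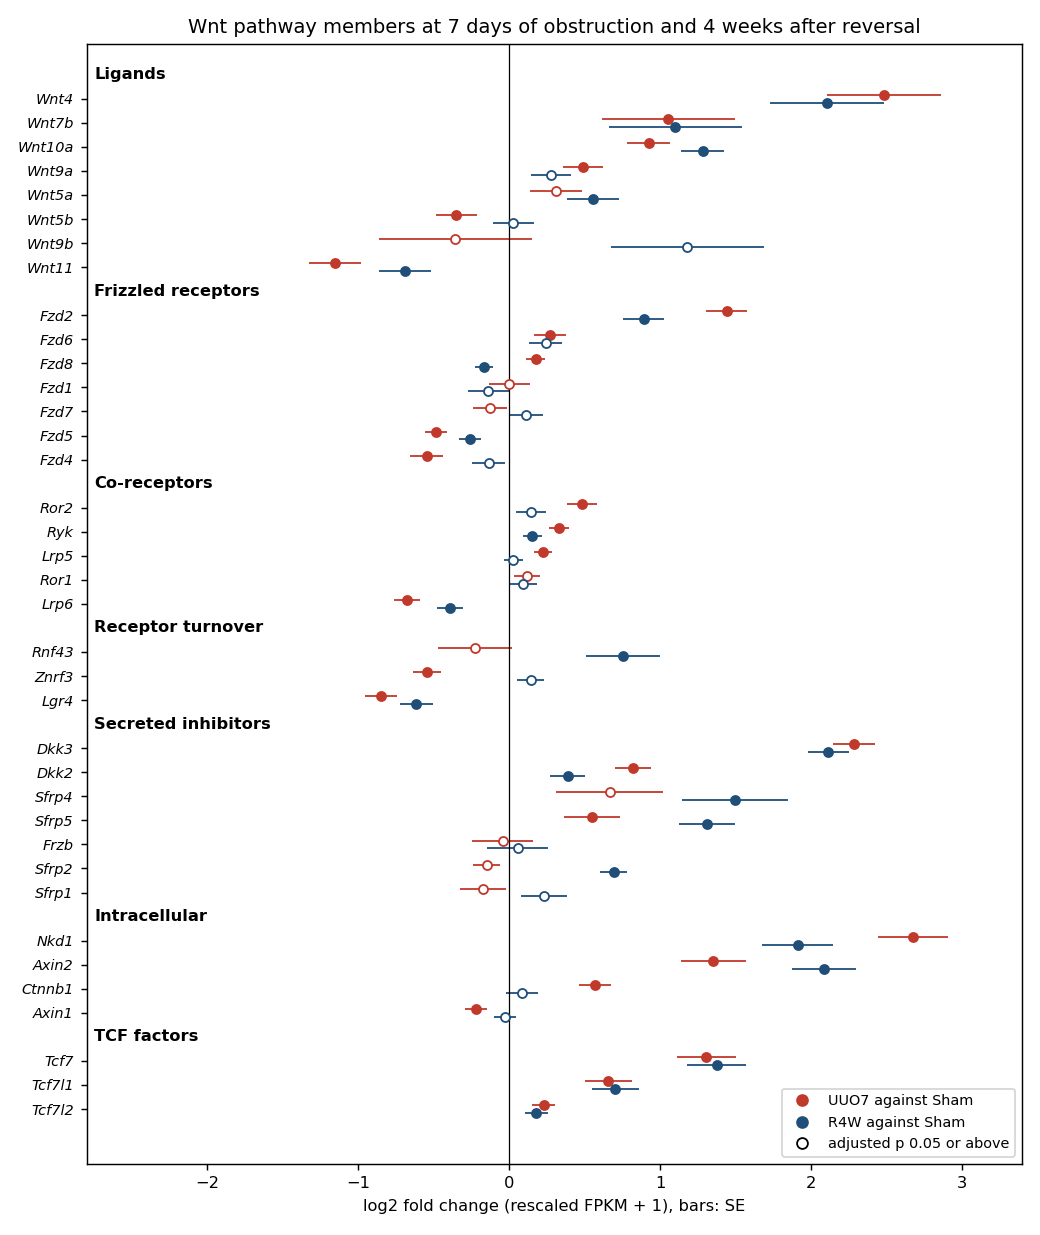
Log2 fold change (horizontal axis, rescaled FPKM + 1) of the 37 members by role at UUO7 and at R4W, each against 4 Sham animals; bars are the moderated SE and open circles have an adjusted p of 0.05 or above. Nkd1 at 2.67, Wnt4 at 2.48 and Dkk3 at 2.28 stand farthest right at UUO7, and Wnt11 at -1.16 farthest left.

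Promoters are shown for the β-catenin feedback gene that rose most at R4W and for the ligand that fell most; the choice of Wnt11 was made after its values were seen. Each is the 250 bases before the gene start in RefSeq on build GRCm38.p6, read 5′ to 3′. Capitals mark the TCF core motif CTTTGA or its reverse complement TCAAAG, searched on both strands. The Axin2 window is chr11:108920099-108920348 on the plus strand, and the Wnt11 window is chr7:98834862-98835111 on the plus strand.
Axin2: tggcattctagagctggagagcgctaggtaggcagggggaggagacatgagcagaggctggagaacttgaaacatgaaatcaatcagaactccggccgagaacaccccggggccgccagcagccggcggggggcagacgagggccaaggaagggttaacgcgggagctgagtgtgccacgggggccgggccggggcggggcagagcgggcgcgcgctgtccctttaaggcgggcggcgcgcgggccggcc
Wnt11: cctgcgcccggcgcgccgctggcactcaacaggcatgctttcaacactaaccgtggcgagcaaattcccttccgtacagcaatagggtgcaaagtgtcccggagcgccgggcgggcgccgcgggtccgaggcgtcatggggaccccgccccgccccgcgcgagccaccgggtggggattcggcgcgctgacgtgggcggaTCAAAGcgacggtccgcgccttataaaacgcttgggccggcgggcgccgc
The Wnt11 window held 1 match, beginning 50 bases before the gene start, and the Axin2 window held 0. RefSeq gives 2 windows for Wnt11, and the one with the match is shown. RefSeq windows were found for 24 of the 37 members. Of their 31 windows 16.1% held the motif, against 13.8% of all 32851 windows of that length. The 50 bases after the window were found in a GENCODE transcript of the gene for 20 of the 31, among them both windows shown. A match of 6 letters is a description and not a bound site.

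Among the intracellular members, the feedback genes Nkd1 and Axin2 were near the floor in Sham and higher at UUO7. Not every feedback target rose, as Notum, described below, fell from a mean of 26.1 in Sham to 6.45 in UUO7. Nkd1, which binds Dishevelled and dampens the signal, was at 1.14, 2.25, 0.74 and 0.61 in the Sham animals. It was at 3.79, 1.98, 2.14 and 4.75 in UUO2 and at 10.7, 12.0, 14.1 and 13.0 in UUO7. Every UUO7 animal stood above every UUO2 animal, and only UUO2 replicates 2 and 3 fell within the range of Sham. Nkd1 rose by 0.93 ± 0.23 (SE, n = 4 per group) at UUO2 (limma adjusted p = 0.0024) and by 2.67 ± 0.23 at UUO7 (adjusted p = 3.85e-09). After reversal it was at 8.82, 10.7, 14.0 and 12.7 in R1W and at 11.5, 6.58, 11.9 and 6.60 in R2W. In R4W it was at 7.69, 6.44, 7.88 and 5.74. It fell by 0.76 ± 0.23 from UUO7 to R4W (adjusted p = 0.011) and was still 1.91 ± 0.23 above Sham (adjusted p = 1.05e-06).

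Axin2, a scaffold of the β-catenin destruction complex and itself a target of the pathway, followed another course. Its levels were 0.48, 1.51, 0.49 and 0.46 in Sham and 0.38, 0.33, 0.34 and 0.27 in UUO2. They were 2.73, 2.90, 3.77 and 3.94 in UUO7 and 3.93, 7.83, 5.17 and 4.72 in R1W. The Sham animal at 1.51 is replicate 2, whose Akr1b3 was 643. R1W replicate 2 at 7.83 and R2W replicate 1 at 8.61, also libraries of high Akr1b3, were the highest of their groups. In R4W the highest was replicate 2 at 6.83, which is not such a library. R2W animals had 8.61, 3.22, 5.68 and 3.94, and R4W animals had 5.90, 6.83, 6.64 and 5.32. All R4W animals were above all UUO7 animals. Axin2 rose by 1.35 ± 0.21 at UUO7 (limma adjusted p = 9.22e-06), then by a further 0.73 ± 0.21 from UUO7 to R4W (adjusted p = 0.0085). Against Sham the R4W difference was 2.08 ± 0.21 (adjusted p = 1.08e-07). At UUO2 its difference from Sham was -0.35 ± 0.21 and did not pass the test (adjusted p = 0.19). Every UUO2 animal was still below every Sham animal, with means of 0.33 and 0.73, and the pseudocount of 1 understates such changes. The authors' deposited table has -1.35 there (adjusted p = 0.014). Between UUO7 and R4W Nkd1 therefore fell while Axin2 rose.

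**Figure D2:**
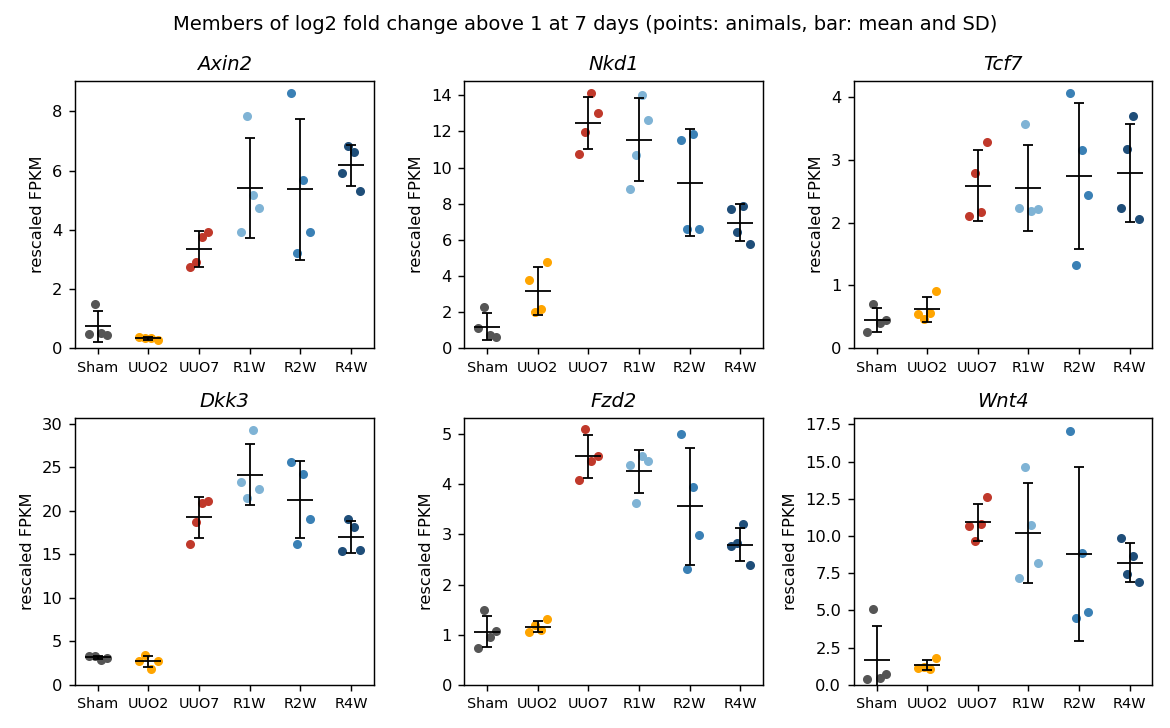
Level in rescaled FPKM (vertical axis, from 0) of 6 of the 7 members whose log2 change at UUO7 was at least 1, by group (horizontal axis); points are animals and bars the mean and SD of 4. The mean of Axin2 is highest at R4W (animals 5.32 to 6.83), though R2W replicate 1 (8.61) and R1W replicate 2 (7.83) lie above it. Nkd1 and Fzd2 have their highest means at UUO7, where the animals overlap R1W. Dkk3 stays between 15.3 and 29.3 in every animal from UUO7 on.

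Ctnnb1 encodes β-catenin, which also holds adherens junctions together, and was the most abundant member. It was at 229, 232, 248 and 262 in Sham, at 308, 239, 327 and 323 in UUO2 and at 355, 350, 400 and 335 in UUO7. No UUO7 animal overlapped Sham. It rose by 0.57 ± 0.10 at UUO7 (limma adjusted p = 6.04e-05), where the authors' deposited table has 0.11 (adjusted p = 0.044). After reversal the levels were 296, 316, 428 and 308 in R1W, then 285, 294, 307 and 272 in R2W and lastly 247, 248, 263 and 271 in R4W. The R4W animals were all below the UUO7 animals, and the fall was 0.48 ± 0.10 (adjusted p = 0.0010), against -0.20 in the authors' deposited table (adjusted p = 0.00014). R4W stood 0.08 ± 0.10 above Sham and did not pass the test (adjusted p = 0.51), while in the values as deposited that difference was 0.46 and called (adjusted p = 0.0012). The UUO2 rise of 0.29 (adjusted p = 0.0255) was lost without Sham replicate 1 or 2 or without UUO2 replicate 1, 3 or 4, at adjusted p up to 0.084, and the authors' deposited table has 0.10 there (adjusted p = 0.43). Axin1, the constitutive counterpart of Axin2, fell by 0.22 ± 0.07 at UUO7 (adjusted p = 0.0105), but in the values as deposited it was called higher at 0.23 (adjusted p = 0.020).

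All 3 TCF genes, the DNA-binding partners of β-catenin, were higher at UUO7, beside 36.5% of all genes. Tcf7 was at 0.25, 0.70, 0.39 and 0.45 in Sham, at 0.54, 0.46, 0.56 and 0.91 in UUO2 and at 2.10, 2.80, 2.17 and 3.29 in UUO7. Its levels were 2.23, 3.58, 2.19 and 2.21 in R1W, then 4.07, 1.32, 3.16 and 2.44 in R2W and lastly 2.23, 3.17, 3.70 and 2.06 in R4W. Every animal from UUO7 on was above every Sham and UUO2 animal. Tcf7 rose by 1.31 ± 0.20 at UUO7 (limma adjusted p = 4.30e-06) and was 1.37 ± 0.20 above Sham at R4W (adjusted p = 6.23e-06), with a UUO7 to R4W difference of 0.07 ± 0.20 (adjusted p = 0.79). Tcf7 is also abundant in T cells. The 5 lymphocyte markers with a row were all higher at UUO7, with a summed level of 2.50 to 3.06 in Sham, 15.2 to 21.9 in UUO7 and 19.9 to 39.2 in R4W, and their part in the Tcf7 rise was not tested. Tcf7l1, a TCF that mostly represses, went from 2.79 ± 0.90 (SD, n = 4) in Sham to 4.88 ± 0.80 in UUO7 and 5.05 ± 0.41 in R4W, a rise of 0.66 ± 0.16 at UUO7 (adjusted p = 0.00077). Tcf7l2, the TCF most abundant here in Sham, rose by 0.23 ± 0.08 at UUO7 (adjusted p = 0.011). That call was lost without Sham replicate 3 (0.17, adjusted p = 0.055), and its R4W call against Sham (0.18, adjusted p = 0.049) was lost in each of the 8 fits that left out 1 animal (adjusted p 0.050 to 0.19).

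Of the 8 ligands, 4 were higher and 2 lower at UUO7 (as deposited 5 and 1), beside 36.5% of all genes in each direction (as deposited 60.1% and 17.8%). Wnt4, a ligand of nephron formation that is expressed in the adult collecting duct, was at 0.38, 5.12, 0.43 and 0.69 in Sham. It was at 1.15, 1.20, 1.08 and 1.81 in UUO2 and at 10.7, 9.64, 10.8 and 12.6 in UUO7. Sham replicate 2 was 5.12 and the only Sham animal above UUO2; every UUO7 animal was above all Sham animals. After reversal Wnt4 was at 7.15, 14.7, 10.7 and 8.20 in R1W, at 17.1, 4.49, 8.83 and 4.86 in R2W, and at 9.83, 7.47, 8.67 and 6.89 in R4W. Wnt4 rose by 2.48 ± 0.38 at UUO7 (limma adjusted p = 5.66e-06) and was 2.10 ± 0.38 above Sham at R4W (adjusted p = 7.99e-05). Without the 5 libraries of high Akr1b3, Wnt4 was also called higher at UUO2 (0.61, adjusted p = 0.0096) and lower at R4W than at UUO7 (-0.54, adjusted p = 0.044).

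Wnt7b, a ligand of the collecting duct that drives medullary growth, was far higher in 1 Sham animal than in the others. It was at 2.26, 16.6, 2.14 and 3.16 in Sham, at 3.82, 4.01, 3.10 and 6.63 in UUO2 and at 9.35, 8.40, 9.13 and 13.1 in UUO7. Sham replicate 2 stood above every UUO7 animal. Levels after reversal were 7.91, 15.2, 5.48 and 5.94 in R1W, then 16.8, 4.64, 9.56 and 5.69 in R2W and lastly 14.9, 7.42, 10.9 and 8.88 in R4W. Wnt7b rose by 1.05 ± 0.44 at UUO7 (limma adjusted p = 0.037), and this call was lost without Sham replicate 1, 3 or 4 or UUO7 replicate 1, 3 or 4 (0.81 to 1.09, adjusted p up to 0.13). Without Sham replicate 2 it was 1.64 (adjusted p = 0.00026). At R4W the difference from Sham was 1.10 ± 0.44 (adjusted p = 0.037), lost without Sham replicate 1, 3 or 4 or R4W replicate 1 or 3 (adjusted p up to 0.13). Without the 5 libraries of high Akr1b3, Wnt7b was called higher already at UUO2 (0.58, adjusted p = 0.041).

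Wnt11, a ligand of branching at the ureteric bud tip that mostly signals without β-catenin, was the member that fell most. It was at 3.16, 5.98, 4.68 and 6.88 in Sham and at 0.15, 0.10, 0.20 and 0.32 in UUO2. UUO7 animals had 1.12, 1.67, 2.29 and 1.82, between the UUO2 and Sham animals with no overlap with either. Wnt11 fell by 2.33 ± 0.17 at UUO2 (limma adjusted p = 1.82e-09) and by 1.16 ± 0.17 at UUO7 (adjusted p = 4.02e-06). It was at 2.54, 3.58, 3.03 and 2.94 in R1W, at 3.94, 2.36, 3.67 and 2.51 in R2W, and at 2.30, 3.21, 2.38 and 3.11 in R4W. The rise from UUO7 to R4W was 0.47 ± 0.17 (adjusted p = 0.030), and it was lost without UUO7 replicate 1 or 2 or R4W replicate 2 or 4 (adjusted p up to 0.11) and in the values as deposited (0.41, adjusted p = 0.082). R4W was 0.69 ± 0.17 below Sham (adjusted p = 0.0017), at 0.46 below it and not called without the 5 libraries of high Akr1b3 (adjusted p = 0.088) nor in the values as deposited (0.39 below, adjusted p = 0.075).

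Wnt10a, a β-catenin ligand of epithelia, rose from 0.31 ± 0.32 (SD) in Sham to 1.45 ± 0.24 in UUO7, by 0.92 ± 0.14 (limma adjusted p = 5.90e-06), and was 1.28 ± 0.14 above Sham at R4W (adjusted p = 2.62e-07). Wnt9a rose by 0.49 ± 0.13 at UUO7 (adjusted p = 0.0022). Wnt5b fell by 0.35 ± 0.14 at UUO7 (adjusted p = 0.026), a call lost without Sham replicate 2 or 3 or UUO7 replicate 3 (adjusted p up to 0.085) and absent in the values as deposited (0.01). Wnt5a, the main ligand of the branch without β-catenin, was 4.42 ± 1.70 (SD) in Sham, 5.52 ± 0.52 in UUO7 and 6.81 ± 1.39 in R4W. Its UUO7 difference of 0.31 did not pass the test (adjusted p = 0.11) and did without Sham replicate 2 (0.51, adjusted p = 0.0041) and in the values as deposited (0.70, adjusted p = 0.0022). At R4W Wnt5a was 0.56 ± 0.17 above Sham (adjusted p = 0.0080). Wnt5a was highest of its group in Sham replicate 2, R1W replicate 2, R2W replicate 1 and R4W replicate 1, at 6.96, 8.75, 8.49 and 8.44, and without the 5 libraries of high Akr1b3 its R4W difference was 0.69 (adjusted p = 0.00016).

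Wnt9b, which in the embryo is made by the collecting duct, differed widely within groups. It was at 0.71, 10.6, 0.93 and 2.16 in Sham, at 1.02, 1.30, 1.03 and 1.64 in UUO2 and at 1.74, 1.38, 1.30 and 1.98 in UUO7. It was at 2.21, 9.62, 1.79 and 2.50 in R1W, at 11.2, 2.05, 3.91 and 2.30 in R2W, and at 10.9, 4.33, 6.67 and 5.45 in R4W. The 5 libraries of high Akr1b3 were the highest of their groups, and every R4W animal was above all UUO7 animals. From UUO7 to R4W it rose by 1.53 ± 0.51 (limma adjusted p = 0.017), a call lost without R4W replicate 1 (1.31, adjusted p = 0.058). Against Sham the R4W difference of 1.18 ± 0.51 did not pass the test (adjusted p = 0.051) and was called without the 5 libraries (1.42, adjusted p = 0.00015) and in the values as deposited (1.42, adjusted p = 0.022). The urothelial gene Upk3a was at 11.8, 15.0, 22.4, 32.5 and 30.8 in those 5 libraries, and its part in the Wnt9b levels was not tested.

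**Figure D3:**
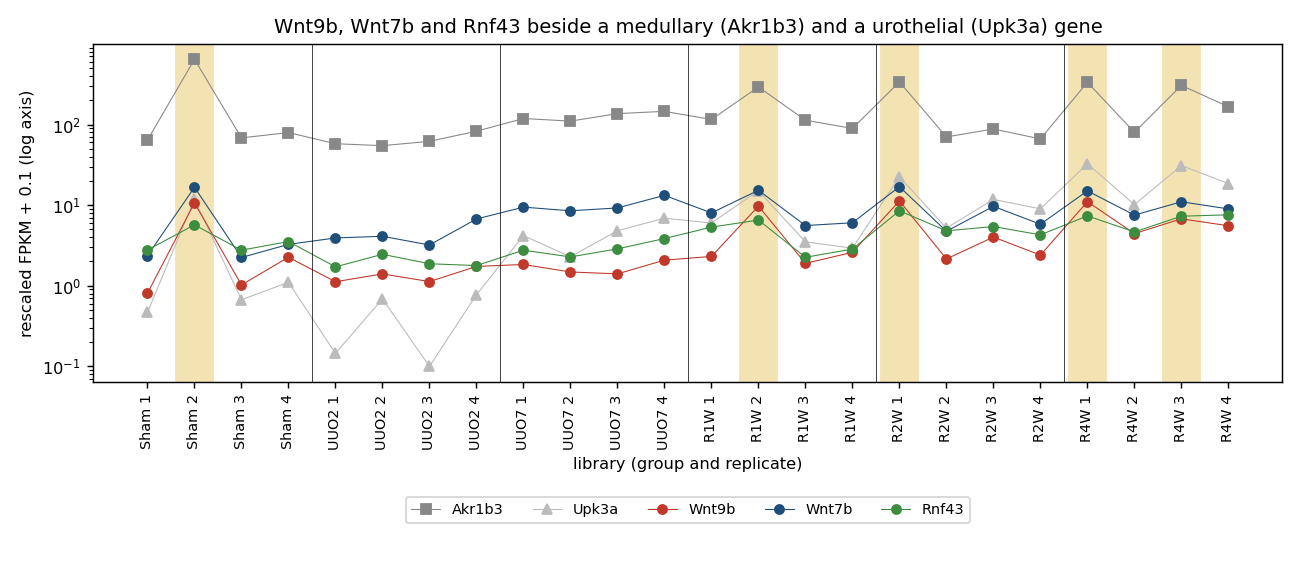
Levels in the 24 libraries (horizontal axis, by group and replicate) on a log axis of rescaled FPKM + 0.1; shaded columns are the 5 libraries with Akr1b3 above 250. Wnt9b and Wnt7b peak in the shaded libraries of Sham, R1W and R2W, and Upk3a is higher in all R4W animals (10.1 to 32.5) than in the other 3 Sham animals (0.37 to 1.00).

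Among the frizzled receptors, which bind the ligands, 3 rose and 2 fell at UUO7 (as deposited 5 and 0), beside 36.5% of all genes each way (as deposited 60.1% and 17.8%). Their summed level was 69.1 ± 5.80 (SD) in Sham and 65.6 ± 5.19 in UUO7. In Sham, Fzd4 at 23.3 ± 0.91 and Fzd1 at 21.7 ± 4.34 were the highest and did not differ beyond their spread. Fzd6 at 8.04 ± 0.87, Fzd7 at 6.15 ± 0.73 and Fzd8 at 5.47 ± 0.34 followed, then Fzd5 at 3.29 ± 0.26, and Fzd2 at 1.06 ± 0.32 was the lowest. FPKM is per kilobase, so these levels can be set beside each other.

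Fzd2, a receptor used both with and without β-catenin, was at 0.73, 1.48, 0.95 and 1.08 in Sham and at 1.04, 1.20, 1.09 and 1.30 in UUO2. It was at 4.08, 5.11, 4.47 and 4.56 in UUO7 and at 4.38, 3.63, 4.56 and 4.46 in R1W. All UUO7 and R1W animals lay above all Sham and UUO2 animals. R2W animals had 5.00, 2.30, 3.94 and 2.99, and R4W animals had 2.76, 2.82, 3.21 and 2.40. Fzd2 rose by 1.44 ± 0.14 at UUO7 (limma adjusted p = 1.08e-08), fell by 0.55 ± 0.14 from UUO7 to R4W (adjusted p = 0.0028) and was 0.89 ± 0.14 above Sham at R4W (adjusted p = 1.60e-05). The 8 fibroblast markers had the same order of group medians, with 43.2 in Sham, 169 in UUO2, 508 in UUO7 and 315 in R4W. At UUO2 their sums did not overlap those of Sham, while Fzd2 overlapped Sham and was not called (0.08, limma adjusted p = 0.66). The part of these markers in the Fzd2 course was not tested.

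Fzd4, a receptor for Wnts and for Norrin that is prominent in endothelium, was at 22.6, 22.7, 23.3 and 24.6 in Sham. It was at 16.8, 23.9, 16.5 and 15.6 in UUO2 and at 15.2, 16.4, 14.6 and 16.4 in UUO7. No UUO7 animal reached the Sham range, and UUO2 replicate 2 alone lay in it. Levels were 19.5, 18.4, 17.5 and 16.5 in R1W, then 16.0, 19.2, 20.6 and 21.9 in R2W and lastly 22.2, 22.8, 17.6 and 22.3 in R4W. Fzd4 fell by 0.55 ± 0.11 at UUO7 (limma adjusted p = 0.00015), which was -0.08 and not called in the values as deposited (adjusted p = 0.50), and rose by 0.41 ± 0.11 from UUO7 to R4W (adjusted p = 0.0048). At UUO2 Fzd4 was 0.36 lower than in Sham (adjusted p = 0.010), which was 0.23 lower and not called in the values as deposited (adjusted p = 0.092). Of 8 endothelial markers all were lower at UUO2 (4 as deposited) and 6 were higher at UUO7, and their part in the Fzd4 course was not tested. Fzd5 fell by 0.48 ± 0.07 at UUO7 (adjusted p = 3.82e-06), again -0.13 and not called in the values as deposited (adjusted p = 0.11). Fzd6 rose by 0.27 ± 0.11 (adjusted p = 0.029), lost without Sham replicate 1 or 3 or UUO7 replicate 4 (adjusted p up to 0.10), and Fzd8 by 0.18 ± 0.06 (adjusted p = 0.015), lost without Sham replicate 1 (adjusted p = 0.068). Fzd1 and Fzd7 were not called at UUO7 and were called higher in the values as deposited, at 0.46 and 0.29.

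Lrp5 and Lrp6 are the co-receptors of the β-catenin branch, and no test compared their changes with each other. Lrp6 was at 26.7, 22.2, 29.5 and 28.3 in Sham, at 18.4, 20.7, 17.8 and 16.8 in UUO2 and at 16.8, 15.9, 15.4 and 16.8 in UUO7. All UUO2 and UUO7 animals were below all Sham animals. Lrp6 fell by 0.51 ± 0.09 at UUO2 (limma adjusted p = 7.06e-05) and by 0.68 ± 0.09 at UUO7 (adjusted p = 5.66e-07). Levels after reversal were 19.2, 20.7, 24.1 and 19.6 in R1W, then 18.2, 20.95, 17.7 and 19.6 in R2W and lastly 19.6, 20.4, 18.3 and 21.7 in R4W. Lrp6 was 1 of the 3 members that rose in the first week after reversal, by 0.34 ± 0.09 (adjusted p = 0.014). R4W was 0.39 ± 0.09 below Sham (adjusted p = 0.00058), which was -0.03 and not called in the values as deposited (adjusted p = 0.74).

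Lrp5 was at 13.2, 13.7, 12.9 and 13.5 in Sham, at 12.1, 12.3, 11.2 and 11.8 in UUO2 and at 14.6, 14.5, 16.8 and 17.1 in UUO7. The Sham animals lay between those of UUO2 and UUO7 with no overlap. Lrp5 rose by 0.22 ± 0.06 at UUO7 (limma adjusted p = 0.0031), where the authors' deposited table has -0.05 (adjusted p = 0.63). It fell by 0.16 ± 0.06 at UUO2 (adjusted p = 0.040), where the call was lost without Sham replicate 1, 2 or 4 or UUO2 replicate 1, 3 or 4 (adjusted p up to 0.12) and in the values as deposited (-0.03, adjusted p = 0.74). It was at 13.8, 13.5, 14.0 and 16.0 in R1W, at 12.9, 13.9, 14.2 and 13.3 in R2W, and at 13.8, 14.6, 12.8 and 13.2 in R4W. R4W animals overlapped Sham, with a difference of 0.03 ± 0.06 (adjusted p = 0.72), which was 0.38 and called in the values as deposited (adjusted p = 0.00016). Of the receptors that act without β-catenin, Ror2 rose by 0.48 ± 0.10 at UUO7 (adjusted p = 0.00019) and Ryk by 0.33 ± 0.07 (adjusted p = 0.00011), while Ror1 at 0.12 ± 0.09 did not pass the test (adjusted p = 0.23) and did in the values as deposited (0.40, adjusted p = 0.00063).

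Of the 3 regulators of receptor turnover, Lgr4 and Znrf3 fell at UUO7 and Rnf43 did not pass the test. Znrf3 and Rnf43 are ubiquitin ligases that remove frizzled from the cell surface, and Lgr4 binds R-spondins, which block those ligases. Lgr4 fell from 33.2 ± 2.15 (SD) in Sham to 18.0 ± 2.06 in UUO7, by 0.85 ± 0.11 (limma adjusted p = 4.35e-07), and was 0.61 ± 0.11 below Sham at R4W (adjusted p = 5.66e-05). At UUO2 Lgr4 was 34.2 ± 5.36 and did not pass the test (adjusted p = 0.81). Znrf3 fell by 0.55 ± 0.09 at UUO7 (adjusted p = 2.00e-05), from 2.33 ± 0.11 to 1.29 ± 0.26, and rose by 0.69 ± 0.09 from UUO7 to R4W, to 2.67 ± 0.18 (adjusted p = 1.71e-05). Rnf43 was 3.59 ± 1.38 in Sham, 1.86 ± 0.34 in UUO2, 2.84 ± 0.66 in UUO7 and 6.62 ± 1.38 in R4W. Its UUO7 difference from Sham was -0.23 (adjusted p = 0.41), and 0.13 in the values as deposited (adjusted p = 0.65). It rose by 0.98 ± 0.25 from UUO7 to R4W (adjusted p = 0.0029) and stood 0.76 ± 0.25 above Sham at R4W (adjusted p = 0.012). Rnf43 was highest of its group in Sham replicate 2, R1W replicate 2 and R2W replicate 1, at 5.59, 6.43 and 8.41, which are libraries of high Akr1b3. Without the 5 such libraries both R4W differences were still called (0.85, adjusted p = 0.0097, and 0.81, adjusted p = 0.011). Both ligases thus rose between UUO7 and R4W together with Axin2.

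**Figure D4:**
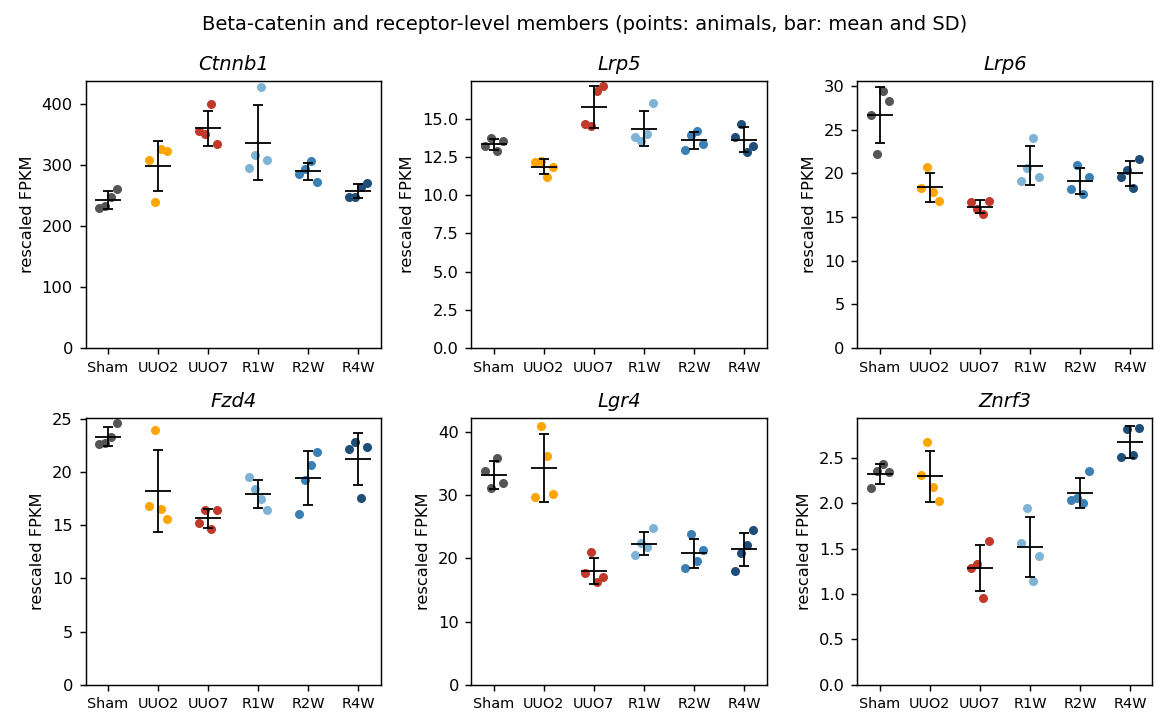
Levels in rescaled FPKM (vertical axis, from 0) of β-catenin, the Lrp co-receptors, Fzd4, Lgr4 and Znrf3 by group (horizontal axis); points are animals and bars the mean and SD of 4. The means of Ctnnb1 and Lrp5 are highest at UUO7, where those of Lrp6, Fzd4, Lgr4 and Znrf3 are lowest.

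Of the 7 secreted inhibitors, 3 rose at UUO7, 0 fell and 4 did not pass the test (as deposited 4 rose and 0 fell), beside 36.5% of all genes each way (as deposited 60.1% and 17.8%). Dkk3, an atypical Dickkopf that does not act through Lrp6 in the way of Dkk1, was at 3.32, 3.30, 2.90 and 3.04 in Sham and at 2.75, 3.46, 1.84 and 2.69 in UUO2. It was at 16.1, 18.6, 20.9 and 21.2 in UUO7, at 23.3, 21.4, 29.3 and 22.5 in R1W, at 25.6, 16.2, 24.2 and 19.0 in R2W, and at 15.3, 19.0, 18.1 and 15.5 in R4W. Every animal from UUO7 on was above every Sham and UUO2 animal. Dkk3 rose by 2.28 ± 0.14 at UUO7 (limma adjusted p = 5.27e-11) and was 2.12 ± 0.14 above Sham at R4W (adjusted p = 6.66e-10). Dkk2, an Lrp-binding Dickkopf, rose by 0.82 ± 0.12 at UUO7 (adjusted p = 2.39e-06), from 6.11 ± 0.59 (SD) to 11.6 ± 1.04, and fell by 0.43 ± 0.12 from UUO7 to R4W (adjusted p = 0.0051). Sfrp5 rose by 0.55 ± 0.19 (adjusted p = 0.012), to 0.87 ± 0.10 in UUO7, and stood at 2.36 ± 1.26 in R4W, 1.31 ± 0.19 above Sham (adjusted p = 6.27e-06).

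Secreted frizzled-related proteins bind Wnt ligands outside the cell, and 3 of the 7 inhibitors, all of this kind, fell at UUO2, beside 25.5% of all genes called lower. Sfrp1, the inhibitor with the highest level in Sham, was at 31.9, 30.1, 32.4 and 28.5 in Sham and at 10.3, 17.8, 7.75 and 7.60 in UUO2. It was at 25.1, 27.9, 27.6 and 27.8 in UUO7, at 35.8, 32.6, 36.4 and 35.2 in R1W, at 34.6, 36.9, 39.5 and 38.1 in R2W, and at 34.9, 34.5, 37.2 and 38.3 in R4W. Every UUO2 animal was below every other animal. Among UUO2 animals replicate 2 was highest for Sfrp1, Fzd1, Fzd4 and Lgr4 and lowest for Ctnnb1. Sfrp1 fell by 1.49 ± 0.15 at UUO2 (limma adjusted p = 1.47e-07), by 1.74 without that animal, and its UUO7 difference from Sham of -0.18 did not pass the test (adjusted p = 0.31), nor did the 0.30 of the values as deposited (adjusted p = 0.075). Frzb, also called Sfrp3, fell by 1.29 ± 0.20 at UUO2 (adjusted p = 2.72e-05), from 14.1 ± 3.64 (SD) to 5.08 ± 0.91, and was 13.5 ± 3.03 in UUO7. Sfrp2 fell by 0.76 ± 0.09 at UUO2 (adjusted p = 8.04e-07), from 1.32 ± 0.13 to 0.37 ± 0.08, and was 2.76 ± 0.46 in R4W, 0.69 ± 0.09 above Sham (adjusted p = 1.80e-06). No UUO2 animal overlapped Sham for these 3 genes.

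Sfrp4 differed widely among animals of one group. It was at 0.40, 3.13, 0.33 and 0.21 in Sham, at 0.10, 0.14, 0.10 and 0.17 in UUO2 and at 1.14, 2.16, 2.39 and 1.57 in UUO7. It was at 1.65, 1.67, 2.48 and 1.49 in R1W, at 1.73, 1.73, 3.00 and 3.86 in R2W and at 8.23, 2.23, 5.96 and 1.85 in R4W. R4W replicates 1 and 3 were highest, followed by R2W replicate 4 and Sham replicate 2. Summed adipose markers were 1618 and 393 in those R4W libraries and 344 in Sham replicate 2, against 42.6 to 171 in every other library. R2W replicate 4 had 72.3, and the part of adipose tissue in the Sfrp4 levels was not tested. Sfrp4 was 1.50 ± 0.35 above Sham at R4W (limma adjusted p = 0.0010). Its UUO7 difference of 0.67 did not pass the test (adjusted p = 0.096) and did without Sham replicate 2 (1.08, adjusted p = 0.0034) and in the values as deposited (0.88, adjusted p = 0.027).

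Across all roles 5 members were higher and 11 lower at UUO2 than in Sham, 43.2% of members beside 50.8% of all genes. As deposited 5 were higher and 7 lower, beside 32.3% and 17.0% of all genes. Higher calls were 25.3% and lower calls 25.5% of all genes, and the median member stood at -0.09 against -0.015 for all genes. Groups did not overlap for 13 members, beside 41.7% of all genes. A log2 change of at least 1 was reached by Wnt11, Sfrp1 and Frzb, all downward, beside 4.04% of all genes. The count of 16 called members was 10 without UUO2 replicate 1 or without UUO2 replicate 3, beside 44.1% and 45.2% of all genes. Fzd1, an abundant frizzled, fell by 0.72 ± 0.14 (limma adjusted p = 0.00019), from 21.7 ± 4.34 (SD) to 12.8 ± 2.76, and was 21.5 ± 2.67 in UUO7. From UUO2 to UUO7, 23 members were higher and 3 lower, with a median of 0.50 against -0.02 for all genes, where 30.0% of genes were higher and 31.9% lower. The called share was 70.3% of members and 62.0% of all genes, and the groups did not overlap for 26 members, beside 56.3% of all genes.

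**Figure D5:**
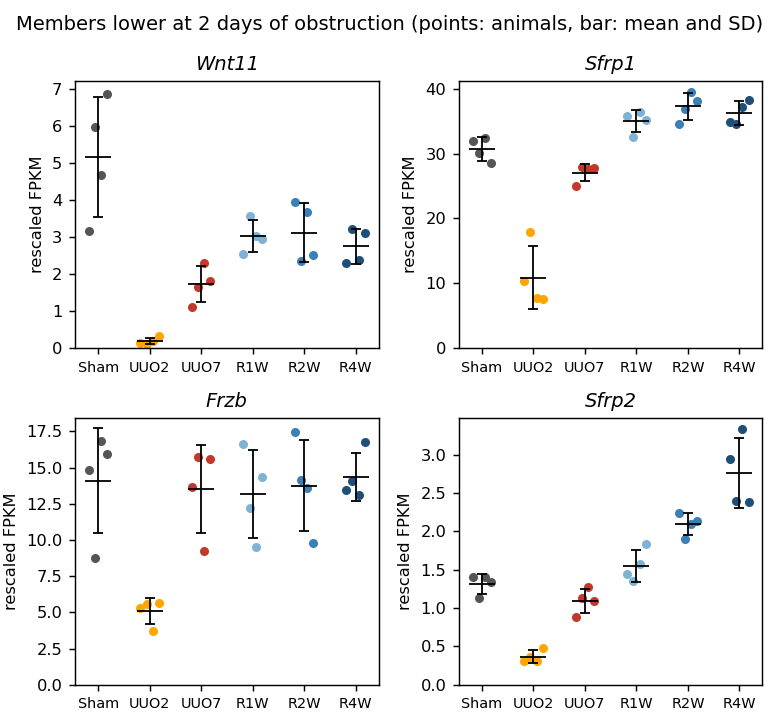
Levels in rescaled FPKM (vertical axis, from 0) of the 4 members Wnt11, Sfrp1, Frzb and Sfrp2 by group (horizontal axis); points are animals and bars the mean and SD of 4. All 4 are lowest in UUO2, and at UUO7 Wnt11 (1.12 to 2.29) and Sfrp1 (25.1 to 27.9) are still below every Sham animal.

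In the first week after reversal 3 members (Lrp6, Wnt11 and Sfrp2) were higher than at UUO7 and 0 were lower, 8.11% of members beside 14.4% of all genes (7.26% higher, 7.14% lower). At an unadjusted p under 0.05 there were 8, beside 30.5% of all genes. The calls of Wnt11 (0.57, limma adjusted p = 0.031) and Sfrp2 (0.28, adjusted p = 0.037) were each lost in several fits that left out 1 animal (adjusted p up to 0.11 and 0.12), that of Sfrp2 also in the values as deposited (adjusted p = 0.052), and the count was 1 without UUO7 replicate 1, without UUO7 replicate 4 or without R1W replicate 4, beside 7.77%, 8.77% and 7.31% of all genes. Groups did not overlap for 11 members, beside 20.5% of all genes.

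From UUO7 to R4W, 14 members were higher and 8 lower, 59.5% of members beside 48.3% of all genes (25.1% higher, 23.2% lower), and the groups did not overlap for 20 members, beside 49.1% of all genes. In the values as deposited 7 were higher and 8 lower, beside 17.6% and 30.8% of all genes. Without the 5 libraries of high Akr1b3 8 were higher and 6 lower, 14 of 37 in all, beside 40.1% of all genes. Of the 19 members that were higher at UUO7, 8 fell by R4W (Ctnnb1, Dkk2, Fzd2, Fzd8, Lrp5, Nkd1, Ror2 and Ryk), 3 rose further (Axin2, Sfrp5 and Wnt10a) and 8 did not pass the test. Of the 8 that were lower at UUO7, 7 rose by R4W and Lgr4 did not pass the test; in the values as deposited the rises of Lrp6, Fzd5, Axin1, Wnt5b and Wnt11 were not called. Of the 8 fits that left out 1 animal, the rise of Axin1 was called in 3, Wnt11 in 4, Wnt5b in 5 and Fzd5 in 7, and the fall of Ryk in 5 and Lrp5 in 6. UUO7 is shared by both comparisons of each such pair, so these pairings describe the course and are not independent. The share of all genes with the same course was not counted, so these counts cannot be set against genes in general. The further rise of Wnt10a (0.36, limma adjusted p = 0.042) was lost without UUO7 replicate 1 or 2 or R4W replicate 1, 2 or 3 (adjusted p up to 0.13) and in the values as deposited (0.30, adjusted p = 0.11). That of Sfrp5 (0.76, adjusted p = 0.0024) was 0.36 and not called without the 5 libraries of high Akr1b3 (adjusted p = 0.088). Between R1W and R4W 3 members were higher (Axin1, Znrf3 and Sfrp2) and 5 lower (Ctnnb1, Dkk3, Fzd2, Fzd8 and Ror2), 21.6% of members beside 17.3% of all genes (8.67% higher, 8.6% lower). As deposited 2 were higher and 8 lower, beside 5.06% and 14.1% of all genes. The count of 8 was 2 without R1W replicate 3, 3 without R4W replicate 1 and 5 without R4W replicate 4, beside 3.06%, 9.18% and 10.2% of all genes. In the fit on these 2 groups alone 0 members were called, beside 0.798% of all genes, and without the 5 libraries of high Akr1b3 only Znrf3 and Fzd2 were. Of the 8 fits that left out 1 animal, Znrf3 and Sfrp2 were called in all, Fzd8 in 7, Ctnnb1 in 6, Dkk3 in 5, Axin1 and Fzd2 in 4 and Ror2 in 2. Groups did not overlap for 11 members, beside 21.2% of all genes.

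At R4W 17 members were higher than in Sham and 5 lower, 59.5% of members beside 60.1% of all genes, of which 28.9% were higher and 31.1% lower. The median member stood at 0.23 against -0.01 for all genes. In the values as deposited 29 were higher and 1 lower, beside 54.8% and 11.6% of all genes. Groups did not overlap for 18 members, beside 58.0% of all genes. A log2 difference of at least 1 was reached by 9 members, all upward, beside 9.91% of all genes: Dkk3, Wnt4, Axin2, Nkd1, Sfrp4, Tcf7, Sfrp5, Wnt10a and Wnt7b. Every deposited row had a mean of at least 1 over all libraries. Axin2, Nkd1, Sfrp4, Tcf7, Sfrp5 and Wnt10a had deposited Sham means of 0.23 to 0.98. They had a row only through higher values elsewhere, so their upward direction was in part fixed by that minimum. By role, 5 of the 7 secreted inhibitors were higher and 0 lower, as were all 3 TCF genes, while the frizzled receptors had 1 higher and 2 lower. In the values as deposited the inhibitors had 6 higher and 0 lower, and the frizzled receptors 3 higher and 0 lower. Secreted inhibitors summed to 56.7 ± 3.79 (SD) in Sham, 24.8 ± 6.07 in UUO2, 75.2 ± 5.06 in UUO7 and 85.6 ± 2.74 in R4W, with Sfrp1 the largest share in each. The calls of Fzd8 and Ryk against Sham were lost in 4 and 7 of the 8 fits that left out 1 animal (adjusted p up to 0.077 and 0.18).

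The wider pathway was read from 4 lists of genes that are no members, to be read beside the 36.5% of all genes called higher and the same share called lower at UUO7 (as deposited 60.1% and 17.8%). Of 16 tested genes of Wnt secretion and extracellular control, 8 were higher and 5 lower at UUO7 (as deposited 10 and 2), with a median of 0.18. Gpc3, a glypican that binds Wnts, rose by 2.59 ± 0.21, Ptk7, a co-receptor of planar polarity, by 1.77 ± 0.12, and Cthrc1, a secreted protein that favours that branch, by 1.05 ± 0.24. Notum, the secreted enzyme that inactivates Wnts and a feedback target, fell by 1.87 ± 0.19 (limma adjusted p = 3.16e-08), from 26.1 ± 4.14 (SD) to 6.45 ± 1.29, and was 11.7 ± 1.61 in R4W. Gpc4 fell by 1.17 ± 0.15. Sostdc1, an inhibitor of Wnt and BMP signals in the distal nephron, fell by 0.92 ± 0.23 (adjusted p = 0.0011), which did not pass the test in the values as deposited (adjusted p = 0.072).

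Of 36 tested genes of the cytoplasmic and nuclear machinery, 11 were higher and 13 lower at UUO7 (as deposited 25 and 3), with a median of 0.02. Nkd2, the paralogue of Nkd1, rose by 2.72 ± 0.22, from 0.27 ± 0.21 (SD) to 7.32 ± 0.34, and Csnk1e, a kinase of Dishevelled, by 1.46 ± 0.17. Sox9, a factor of injured tubules, was 0.20 ± 0.05 in Sham, 14.9 ± 8.37 in UUO2 and 5.43 ± 0.89 in UUO7, a rise of 2.41 ± 0.38. Hipk2 fell by 1.41 ± 0.12, Csnk1g3 by 0.76 ± 0.08 and the Dishevelled gene Dvl3 by 0.68 ± 0.15, the last not called in the values as deposited (-0.24, limma adjusted p = 0.18). Of 30 tested genes of the planar polarity and calcium branches, 15 were higher and 9 lower (as deposited 20 and 3), with a median of 0.22. Prkcb rose by 2.41 ± 0.31, Nfatc4 by 2.31 ± 0.17 and Dact3 by 1.92 ± 0.15, while Plcb1 fell by 0.83 ± 0.10, Prkca by 0.69 ± 0.10 and Mapk9 by 0.65 ± 0.08. Prkcb is also abundant in leukocytes.

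Of 30 tested genes that have been reported as β-catenin targets, 22 were higher and 6 lower at UUO7 (as deposited 23 and 2), with a median of 1.40. At R4W against Sham 24 were higher and 5 lower (as deposited 24 and 2), with a median of 0.97, beside 28.9% and 31.1% of all genes (as deposited 54.8% and 11.6%). Most of them answer to other pathways as well. Mmp7, a matrix protease made by injured tubules, rose by 5.36 ± 0.39, from 0.07 ± 0.09 (SD) to 43.0 ± 3.88. Fn1, fibronectin, rose by 3.90 ± 0.18. Sp5, a transcription factor and a direct target in many tissues, fell by 1.34 ± 0.14 (limma adjusted p = 4.81e-08), from 12.0 ± 1.50 to 4.12 ± 0.27, and was 5.72 ± 0.69 in R4W. Ccnd1, cyclin D1, fell by 0.77 ± 0.12 and Agtr1a, the angiotensin receptor, by 0.60 ± 0.13, the latter not called in the values as deposited (adjusted p = 0.19).

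In the authors' deposited table, 27 members have an adjusted p under 0.05 at UUO7 against Sham, and 25 of them were called in the same direction here, the others being Sfrp1 and Wnt5a, while Lrp5 and Wnt7b were called here alone. For Wnt7b the authors' deposited table gives a log2 fold change of 0.72 there but no adjusted p. At R4W against Sham the authors' deposited table has 21, of which 18 were called in the same direction here, without Fzd6, Sfrp1 and Wnt9a, while Ryk, Sfrp4, Tcf7l2 and Wnt7b were called here alone, and at R1W against UUO7 it has 7, of which 2 were.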

How the data were processed

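RNA of 24 mouse kidneys was sequenced as polyA libraries. The authors deposited 1 table of 14785 rows, whose unit is not given in the sources used here. FPKM was inferred from the deposited values, whose columns summed to 717415 to 830179 and whose smallest row mean was 1. Per the submitters' processing notes, FastQC, RSEM, Bowtie2, DESeq2 and build mm10 were used, with no versions or order. The deposited table also holds the authors' log2 fold changes and adjusted p-values, with no stated test. Whole-fragment steps in low FPKM values of 1539 genes gave a depth of 24900000 to 35600000 fragments in 19 libraries. In the other 5, all 4 UUO2 libraries and R1W replicate 2, depth is unknown.

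Groups and replicate numbers came from titles. Each library was divided by the median of its ratios to the geometric means of genes. Values of log2(rescaled FPKM + 1) were fitted in R 4.3.3 by limma 3.58.1 (functions lmFit and eBayes, the latter with a trend), 1 coefficient per group, on every row. The pseudocount of 1 understates changes of low genes. Benjamini-Hochberg adjustment ran over all 14785 rows. The fit was tested on simulated data. Tables and figures were made with Python 3.11.15, pandas 2.3.3 and numpy 2.4.6.

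The members, the gene lists and the tests were chosen with earlier results of these data known. Values in every library were given for members called at UUO7 against Sham whose log2 fold change was 1 or more in size, and for Ctnnb1, Lrp5, Lrp6, Axin2, Tcf7, Wnt4, Fzd4 and Dkk3; Sfrp1, Sfrp4 and Wnt9b were added after their values were seen. Lef1 is not analysed here. From each pathway list up to 3 called rises and 3 called falls of greatest size were named; 1 such gene is not reported here. Alternatives were the values as deposited, a pseudocount of 0.1, a minimum mean of 5, a replicate block, fits on fewer groups, R4W replicate 2 placed in R2W, a fold threshold and the removal of each animal. Leaving out the 5 libraries of high Akr1b3 was chosen after seeing the data. Within groups, libraries correlated at 0.962 to 0.992 and 0 columns were identical.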

Additional observations from a re-analysis of the deposited data

Results flagged for a closer look

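For 12 members and 6 groups of 4 animals, 72 in all, the animal farthest from the rest was compared with Dixon's limit at the 95% level, the gap to the nearest animal as a share of the group's range; 8 passed it, where chance gives about 1 in 20, or about 3.6. In Sham replicate 2 Wnt4 was 5.12, Wnt7b 16.56 and Axin2 1.51, each above the other 3 Sham animals. Wnt4 was 1.81 in UUO2 replicate 4, above the other UUO2 animals. Tcf7 was 3.58 in R1W replicate 2 and Ctnnb1 427.78 in R1W replicate 3, each above the rest of R1W. Fzd4 was 23.92 in UUO2 replicate 2, above the rest of UUO2, and 17.58 in R4W replicate 3, below the rest of R4W. In rescaled FPKM Lrp5 was lower than in Sham in every UUO2 animal and higher in every UUO7 animal. The difference of UUO7 from UUO2 passed the limma test at a log2 fold change of 0.381. The authors' deposited table has 0.23 there (adjusted p = 0.082) and -0.05 at UUO7 against Sham (adjusted p = 0.63). The UUO2 fall was called in 2 of the 8 fits that left out 1 animal. In the values as deposited it was -0.03 and not called (limma adjusted p = 0.74).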

How the results depend on the processing

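With a log2 change of at least 1 required, 3 members were called at UUO2 against Sham, 8 at UUO7 against Sham, 11 at UUO7 against UUO2, 0 at R1W against UUO7, 1 at R4W against UUO7, 0 at R4W against R1W and 9 at R4W against Sham, beside 9.06%, 24.1%, 14.2%, 1.26%, 5.8%, 0.805% and 13.1% of all genes. With a minimum mean of 5 only 20 members were tested; 11 were called at UUO2 against Sham, 15 at UUO7 against Sham, 13 at UUO7 against UUO2, 1 at R1W against UUO7, 10 at R4W against UUO7, 4 at R4W against R1W and 10 at R4W against Sham, beside 55.7%, 75.7%, 63.9%, 17.1%, 52.7%, 21% and 62.6% of the genes tested. The fit without UUO2 called 5 at R1W against UUO7, beside 17.8% of all genes. The limma fit on the 2 groups alone called 0 at R4W against R1W, beside 0.798% of all genes, with 13 at an unadjusted p under 0.05, beside 30.2% of all genes. Without the 5 libraries of high Akr1b3, 14 were called at R4W against UUO7 and 2 at R4W against R1W, beside 40.1% and 2.6% of all genes. Leaving out 1 animal gave 10 to 16 at UUO2 against Sham, 1 to 3 at R1W against UUO7 and 2 to 10 at R4W against R1W, beside 44.1% to 54.9%, 7.31% to 16.4% and 3.06% to 21.9% of all genes. Among members called in at least 1 scaling, the values as deposited turned the direction at UUO7 against Sham for Fzd1 (0.464), Fzd7 (0.287), Axin1 (0.231) and Wnt5b (0.006), at UUO7 against UUO2 for Fzd5 (0.067), Fzd7 (0.238) and Axin1 (0.282), and at R4W against Sham for Fzd5 (0.02), Fzd8 (0.145) and Axin1 (0.321). By construction that setting shifts all genes, by 0.412, 0.301 and 0.316 at the median. Same-numbered animals share only a number (mean correlation of deviations -0.203 to 0.162), and the replicate block gave 13, 27, 24, 3, 21, 7 and 20 called members in the order above, beside 49.7%, 72.6%, 61.5%, 12.5%, 47%, 16.4% and 59.7% of all genes. Causes of the other changes were not tested. Depth is unknown for UUO2, and the precision of members below 1 FPKM is limited by few fragments.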
